A study of Mus musculus with 12 samples.

Results

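Cytosolic ribosomal protein genes encode the proteins of the ribosome that translates nuclear mRNAs. They were taken as the rows whose symbol is Rpl or Rps followed by a digit, or Rplp0, Rplp1, Rplp2 or Rpsa, with a mean of at least 50 CPM (counts scaled to equal library totals) over all libraries, leaving out symbols with -ps and the Rps6k kinases. This gave 82 of 48709 rows, with 49 genes of the large subunit and 33 of the small subunit. The data came from RNA-seq of *i*NKT cells, the invariant natural killer T cells, of the mouse thymus, in 12 libraries of 4 groups with 3 libraries each: miR-155KI NK1.1+, WT NK1.1+, miR-155KI NK1.1- and WT NK1.1- cells. All mice were C57BL/6J and 7 weeks old. miR-155KI mice carried 2 copies of a miR-155 cassette knocked into Rosa26, switched on by CD4Cre. CD4Cre acts in all T cells that pass a CD4+ stage and so also in conventional thymocytes. The WT mice were littermates that carried the knock-in allele without CD4Cre. Thymocytes were depleted of CD8+ cells and sorted by TCRβ, CD1d tetramer, CD44 and NK1.1 into NK1.1- cells (stages 1 and 2) and NK1.1+ cells (stage 3). The labels name 3 libraries per group while the study's methods describe pooled replicates, and no library is tied to a named mouse, so a p-value here reflects only how far these libraries spread, which may be technical.

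Ribosomes are built in the nucleolus from ribosomal RNA and ribosomal proteins, most of them in 1 copy per ribosome. The mRNAs of these proteins begin with a short tract of pyrimidines, the 5′ terminal oligopyrimidine (TOP) tract, through which mTORC1 signalling controls how strongly they are translated. MYC raises transcription of ribosome genes. T cells increase ribosome production when they leave rest and divide, and *i*NKT cells divide at the NK1.1- stages before they mature into NK1.1+ cells.

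Of the 80 proteins of the canonical ribosome, 76 were among the 82 genes. Of the other 4, Fau and Rack1 were among those that fell outside by their names, and Rpl29, a large subunit protein, fell below the limit with a mean of 10.3 CPM. The remaining 6 genes were copies of canonical genes: Rps27l, Rps27rt, Rpl7l1, Rpl22l1, Rpl36al and Rpl37rt. The genes just inside the limit were Rps27l at 80.7, Rpl7l1 at 91.7 and Rpl27 at 110 CPM, and the rows just outside were Rps19bp1, which encodes a binding protein of Rps19 and no ribosomal protein, at 35.8 CPM and Rpl29. All 82 genes passed the filter on low counts, and the lowest count of any of them in a library was 667.

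The start sites are shown for the 7 genes that passed a test below and had an entry in the promoter table, because the TOP tract lies there. RefSeq promoter sequences (build GRCm38.p6) were found for 63 of the 82 genes. Each line gives 15 bases before and 15 bases from the annotated start, in the direction of the gene, with the longest run of at least 6 pyrimidines in capitals.
Rps26, chr10:128626492-128626521, minus strand: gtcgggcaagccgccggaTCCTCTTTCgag
Rpl28, chr7:4792950-4792979, plus strand: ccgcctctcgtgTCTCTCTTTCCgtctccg
Rpl31, chr1:39367836-39367865, plus strand: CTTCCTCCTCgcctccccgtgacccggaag
Rps27, chr3:90213634-90213663, minus strand: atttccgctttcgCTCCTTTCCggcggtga
Rps27rt, chr9:114982725-114982754, minus strand: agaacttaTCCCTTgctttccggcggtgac
Rpl5, chr5:107900513-107900542, plus strand: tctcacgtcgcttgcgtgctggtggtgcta
Rpl23, chr11:97782425-97782454, minus strand: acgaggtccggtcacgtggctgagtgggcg

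The windows of 5 of these genes held such a run and those of Rpl5 and Rpl23 held none. A run of at least 6 pyrimidines was in the windows of 60.3% of the 63 genes and of 32.7% of 27025 genes of the table. CTTTC, searched on the gene's strand in the same window and often part of such a run, was in 27.0% of the 63 genes and 4.76% of all genes. CCGGAAG, searched on both strands of the 300-base promoter, was in 39.7% of the 63 genes and 9.93% of all genes. Of 68 genes of the mitochondrial ribosome, 35.3% held a pyrimidine run, 4.41% CTTTC and 36.8% CCGGAAG. Of 18 other mRNAs with a TOP tract, 72.2% held a run, 22.2% CTTTC and 16.7% CCGGAAG. AAGATGGC on both strands of the promoter was in 9.52% of the 63 genes and 3.19% of all genes, as well as in 17.6% of the mitochondrial ribosome genes and 22.2% of the other TOP mRNAs. TATAAA on the gene's strand in the 50 bases before the start was in 1.59% and 3.15%. These matches describe annotated starts and do not measure where the transcripts of these cells began.

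The libraries held between 12819476 and 20518257 counts. All 8 T cell markers, such as Cd3e and Trac, were detected in every library. Klrb1c, which encodes NK1.1, was at 453 to 625 CPM in miR-155KI NK1.1+ cells and 344 to 731 CPM in WT NK1.1+ cells, and at 39.0 to 52.5 CPM in miR-155KI NK1.1- cells and 58.2 to 83.9 CPM in WT NK1.1- cells. Mir155hg, the host transcript of miR-155, was at 91.6 to 153 CPM in miR-155KI libraries and 9.43 to 14.4 CPM in WT libraries. The libraries of WT replicates 2 and 3 in both pools had Xist at 132 to 249 CPM and the other libraries at most 32.6 CPM, so the genotypes also differed in this marker of female cells.

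The 82 genes took 9.63% to 12.9% of all counts. Their share was 9.63%, 10.7% and 10.4% in miR-155KI NK1.1+ cells and 12.3%, 11.4% and 10.9% in WT NK1.1+ cells. It was 11.6%, 12.3% and 12.0% in miR-155KI NK1.1- cells and 12.1%, 11.1% and 12.9% in WT NK1.1- cells. In this share of library totals the miR-155KI NK1.1+ libraries were the lowest 3 of the 12, while the NK1.1- groups overlapped. On CPM scaled by the TMM method the order differed. The summed level was then 91187, 114890 and 107690 CPM in miR-155KI NK1.1+ and 130050, 118320 and 111630 CPM in WT NK1.1+ libraries, which overlapped. It was 109090, 118880 and 117960 CPM in miR-155KI NK1.1- and 117640, 105910 and 132230 CPM in WT NK1.1- libraries. Only miR-155KI NK1.1+ replicate 1 lay below all WT and NK1.1- libraries on that scale. The ratio of large to small subunit counts stayed between 1.29 and 1.41 in all libraries. Pseudogenes with -ps in their names, which could take reads of the genes, held 0.156% to 0.231% of counts. Only 18 of 275 such rows had counts, and pseudogenes under other names were not part of this sum.

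**Figure D1:**
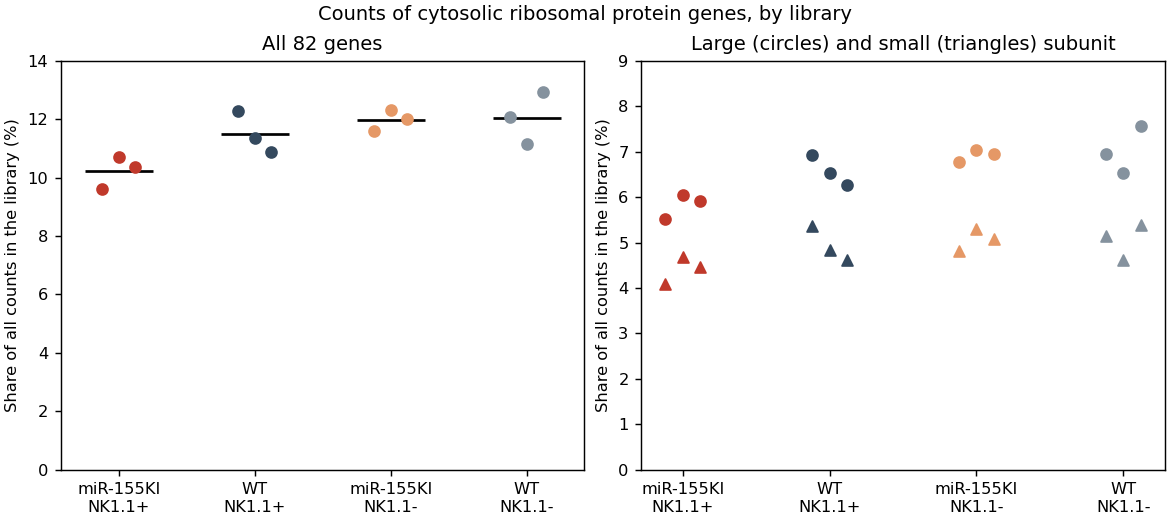
Share of each library's counts (%, y axis) that fell on the 82 cytosolic ribosomal protein genes (left) and on those of the large and the small subunit (right), by group, with 1 point per library and a line at the group mean on the left. The miR-155KI NK1.1+ libraries lay at 9.63% to 10.7%, below the WT NK1.1+ libraries at 10.9% to 12.3%. On CPM scaled by the TMM method, not shown here, the summed levels of these groups overlapped.

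Per kilobase of transcript, the median level of the 81 genes with a protein-coding transcript length was 1763 CPM per kilobase. Rps29, a zinc-binding protein of the small subunit, was highest with 6732 CPM per kilobase, followed by Rpl13a, which is also known for silencing translation when released from the ribosome, with 6527 CPM per kilobase. The stalk proteins Rplp1 and Rplp0 had 6482 and 6318 CPM per kilobase. The lowest were the copies Rpl7l1 with 70.0 and Rps27l with 162 CPM per kilobase, followed by Rpl22, which αβ T cells need for their development, with 175 CPM per kilobase. The length was the median over a gene's protein-coding transcripts, 2048 bases for Rpl22, while its transcript compared with Rpl22l1 had 474 bases. These ranks therefore depend on the transcripts taken. Before division by length Rpl22 was at 359 CPM, above Rpl21, Rps12 and Rpl27. On CPM scaled by the TMM method, as are all CPM from here on, the highest of the 12 libraries was 1.60 times the lowest in the median gene. It was over 2 times the lowest in 5 genes, led by Rps27l with 3.50 times and followed by Rps12 with 2.18 times and Rpl28 with 2.09 times. Rps3a1, a small subunit protein, varied least with 1.26 times.

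In NK1.1+ cells, the comparison of miR-155KI with WT asked whether miR-155 overexpression altered these genes in the mature pool. The level was lower in miR-155KI cells for 79 of the 82 genes, against 47.6% of all genes. The median log2 fold change was -0.19 against 0.02 over all genes tested. None of the 82 genes passed the threshold of an adjusted p of 0.05 in edgeR's quasi-likelihood test, in either direction, against 0.0231% of all genes that were higher and 0% that were lower. At an unadjusted p under 0.05 there were 15 of the 82 (18.3%), against 11.8% of all genes. DESeq2 called 2, Rpl5 and Rpl23, and limma-voom called 0. The levels of both genotypes did not overlap in 20 genes that were lower and in 1 that was higher in miR-155KI cells, against 8.33% and 8.49% of all genes.

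Rpl5 differed most in this comparison. It encodes a large subunit protein that joins Rpl11 and 5S ribosomal RNA in a particle that can bind Mdm2. It was at 1101, 1189 and 1151 CPM in miR-155KI NK1.1+ libraries and at 1692, 1782 and 1913 CPM in WT NK1.1+ libraries. The groups did not overlap, and the 3 miR-155KI NK1.1+ libraries were the lowest of all 12. The log2 fold change was -0.66 ± 0.12 (SE, n = 3 each), with an adjusted p of 0.201 in edgeR. Rpl11 itself was at 1061, 1265 and 1240 CPM in miR-155KI NK1.1+ libraries and 1441, 1294 and 1201 CPM in WT NK1.1+ libraries, and these overlapped.

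Rpl23, a large subunit protein that can also bind Mdm2, was at 777, 834 and 871 CPM in miR-155KI NK1.1+ cells and 1138, 1275 and 1316 CPM in WT NK1.1+ cells. As for Rpl5, the 3 miR-155KI NK1.1+ libraries were the lowest of the 12. Its log2 fold change was -0.60 ± 0.12 (SE, n = 3 each), with an adjusted p of 0.201 in edgeR. Over 18 alternative settings the adjusted p ran between 0.0129 and 1.00 for Rpl5, which was called in 3 (DESeq2, a fit of all 12 libraries and no filter on low counts), and between 0.0381 and 1.00 for Rpl23, called in the first 2 of these.

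Rps12, a small subunit protein that acts in cell competition in *Drosophila*, was at 168, 195 and 156 CPM in miR-155KI NK1.1+ cells and 257, 244 and 243 CPM in WT NK1.1+ cells. These groups did not overlap either, and the log2 fold change was -0.53 with an adjusted p of 0.245 in edgeR. Rps21, also of the small subunit, was at 433, 617 and 515 CPM in miR-155KI cells and 814, 712 and 730 CPM in WT cells, without overlap. Rpl39, a small protein at the wall of the exit tunnel encoded on the X chromosome, was at 434, 491 and 499 CPM in miR-155KI cells and 716, 648 and 565 CPM in WT cells, also without overlap. The other 3 X-linked genes, Rpl10, Rps4x and Rpl36a, had log2 fold changes of -0.22, -0.25 and -0.20, close to the median of the 82 genes, and none was called.

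The stalk, formed by Rplp0, Rplp1 and Rplp2, recruits the GTPases that drive translation. Rplp1 was at 2401, 3212 and 2751 CPM in miR-155KI NK1.1+ cells and 3724, 3526 and 3422 CPM in WT NK1.1+ cells. Rplp0 was at 3945, 4755 and 4645 CPM in miR-155KI cells and 5292, 5370 and 4810 CPM in WT cells, and Rplp2 was at 1300, 1707 and 1554 CPM against 1906, 1876 and 1796 CPM. All 3 stalk genes were lower in miR-155KI cells without overlap, with log2 fold changes of -0.37, -0.23 and -0.31 for Rplp1, Rplp0 and Rplp2 and no call. Among the genes with higher levels in miR-155KI cells, Rpl7l1, a copy of Rpl7 with a role in ribosome assembly, was at 96.6, 111 and 114 CPM in miR-155KI cells and 89.6, 68.8 and 77.5 CPM in WT cells. Its groups did not overlap, the only such gene in this direction, and its log2 fold change of 0.43 was not called (adjusted p of 0.318 in edgeR). The other higher values were those of Rps27l, at 0.34, and Rpl4, at 0.06.

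Single libraries weighed on this comparison. miR-155KI replicate 1 was the lowest of the 6 NK1.1+ libraries in 72 of the 82 genes, and WT replicate 1 was the highest in 65. Without miR-155KI replicate 1 the median log2 fold change was -0.09, with 72 genes lower, and 20 genes did not overlap in that direction against 16.1% of all genes. Without WT replicate 1 the median was -0.12, and with WT replicate 1, the only WT library low in Xist, as the only WT library it was -0.31. Macrophage markers moved with the genotype: all 8 were higher in miR-155KI NK1.1+ cells, 2 of them called, and their summed level was 220 to 850 CPM in these and 29.1 to 36.4 CPM in WT NK1.1+ libraries. The summed level of 7 markers of CD4+CD8+ thymocytes was 211, 8.48 and 21.6 CPM in miR-155KI NK1.1+ replicates 1, 2 and 3 and 7.02 to 9.25 CPM in WT NK1.1+ libraries. The parts of these cells, of replicate 1 and of sex in the result were not tested. In bulk samples, a smaller share of a cell type and less RNA per cell also cannot be told apart.

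**Figure D2:**
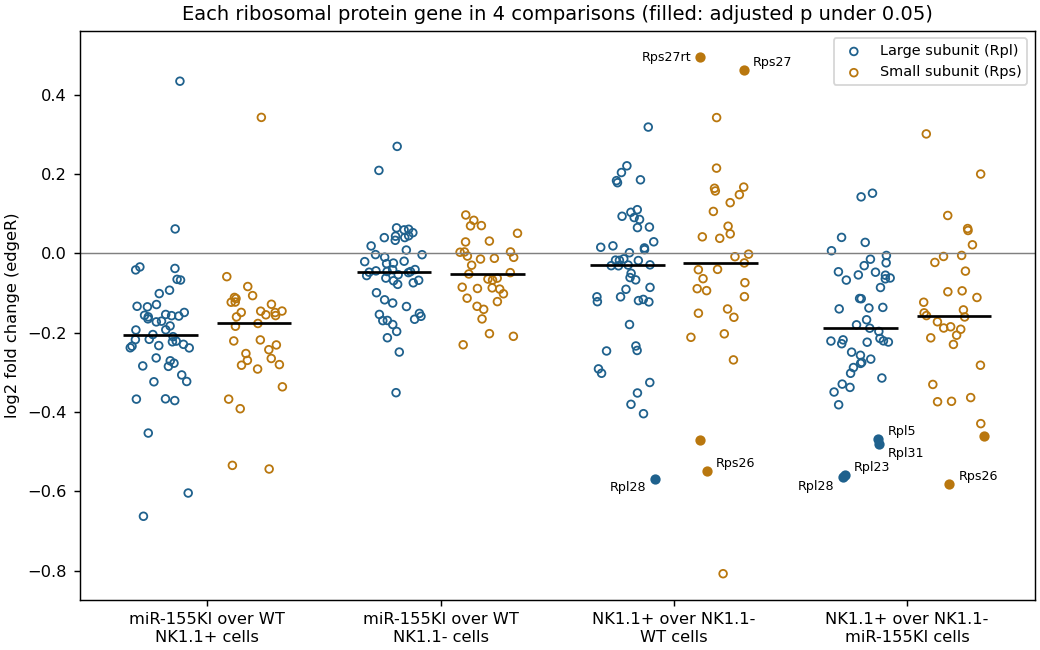
log2 fold change in edgeR (y axis) of each of the 82 genes in 4 comparisons, with large subunit genes in blue, small subunit genes in ochre, filled points for an adjusted p under 0.05, most of them named, and lines at the medians. The points lie below 0 for 79 genes in the genotype comparison of NK1.1+ cells, where none is filled. Scaling to the summed counts of these genes, which cannot show a shift that they share, leaves 36 below 0.

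In NK1.1- cells, the same comparison of miR-155KI with WT showed no called gene among the 82 in either direction in edgeR, against 1.93% of all genes that were higher and 1.5% that were lower (3.44% together). At an unadjusted p under 0.05 there was 1 of the 82 (1.22%), against 18.5% of all genes, and DESeq2 and limma-voom called 0. The median log2 fold change was -0.05 against -0.00 over all genes, with 59 genes lower and 23 higher, where 50.1% of all genes were lower. With libraries scaled by their totals alone the median was 0.00 and 39 were lower. The groups did not overlap in 2 genes that were lower and 0 that were higher in miR-155KI cells, against 9.90% and 13.2% of all genes.

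The gene with the smallest p was Rpl27, a large subunit protein. It was at 95.5, 109 and 109 CPM in miR-155KI NK1.1- cells and 130, 121 and 143 CPM in WT NK1.1- cells. The groups did not overlap, and the log2 fold change was -0.35 with an adjusted p of 0.107 in edgeR. Rpl22l1, the copy that rises when Rpl22 is deleted in mice, was at 242, 325 and 308 CPM in miR-155KI NK1.1- cells and 268, 253 and 193 CPM in WT NK1.1- cells. These overlapped, and the log2 fold change was 0.27 with an adjusted p of 0.343 in edgeR. Rpl22 itself was at 345, 430 and 391.8 CPM in miR-155KI NK1.1- cells and 443, 314 and 369 CPM in WT NK1.1- cells, which overlapped with a log2 fold change of 0.03.

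Single libraries also stood apart here. WT replicate 2 was the lowest of the 6 NK1.1- libraries in 60 of the 82 genes and WT replicate 3 the highest in 51. Without WT replicate 2 the median log2 fold change was -0.12, with 20 genes lower without overlap against 15.0% of all genes, and without WT replicate 3 it was 0.02. It was -0.01 without miR-155KI replicate 1 and -0.09 without miR-155KI replicate 2. Rpl32, the large subunit gene to which the study scaled its RT-qPCR, was at 2526, 2681 and 2697 CPM in miR-155KI NK1.1- cells and 2743, 2387 and 2942 CPM in WT NK1.1- cells. In NK1.1+ cells it was at 1980, 2535 and 2380 CPM in miR-155KI libraries and 2827, 2460 and 2304 CPM in WT libraries. The genotypes overlapped in both pools, with log2 fold changes of -0.15 for NK1.1+ and -0.05 for NK1.1-, neither called.

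Whether the genotype difference itself differed between pools was tested as an interaction in a fit of all 12 libraries. No gene of the 82 was called in edgeR, against 0.0278% of all genes (0.00694% above 0 and 0.0208% below), and 2 (2.44%) had an unadjusted p under 0.05, against 8.1% of all genes. DESeq2 and limma-voom called 0. Rpl23 and Rpl5 led, with interaction log2 values of -0.60 ± 0.16 and -0.50 ± 0.16 (SE) and adjusted p of 0.299 and 0.384 in edgeR. The median was -0.14, with 75 genes below 0 against 48.7% of all genes, and without miR-155KI NK1.1+ replicate 1 it was -0.03, with 52 below 0. Without WT NK1.1- replicate 2 it was -0.05, without WT NK1.1+ replicate 1 it was -0.07, without WT NK1.1- replicate 3 it was -0.24, and without miR-155KI NK1.1+ replicate 2 it was -0.23. Scaling to the summed counts of the 82 genes cannot show a shift that they share. With it 38 were below 0, and the median was 0.01 against 0.19 over all genes.

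In WT cells, NK1.1+ cells were compared with NK1.1- cells to ask how these genes differed between the pools. Per the paper, the subsets *i*NKT2 and *i*NKT17 end at stage 2, so the NK1.1- pool mixes them with precursors of NK1.1+ cells. The paper also reports more *i*NKT2 and fewer *i*NKT17 cells with miR-155 overexpression. The part of this mix in the pool comparisons was not tested. Rps26 and Rpl28 were among the genes that fell and Rps27 and Rps27rt rose in NK1.1+ cells, so that 5 of the 82 genes were called in edgeR, 2 higher and 3 lower, against 9.89% and 10.9% of all genes (20.8% together). Levels were lower in 49 of the 82 and in 49.4% of all genes. The other 77 did not pass, the median log2 fold change of all 82 was -0.03, and 12 (14.6%) had an unadjusted p under 0.05, against 33.4% of all genes. The levels did not overlap in 5 genes that were higher and 6 that were lower in NK1.1+ cells, against 20.4% and 18.5% of all genes. Deviations of same-numbered WT libraries of both pools correlated at 0.315, 0.257 and 0.119, though NK1.1+ replicate 3 reached 0.121 with NK1.1- replicate 2. With the replicate number as a block 8 genes were called, the same 5 and Rpl31, Rpl36al and Rps27l. This is 9.76% of the 82 against 29.9% of all genes in that fit.

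Rps26, a small subunit protein at the channel where the mRNA leaves the ribosome, was at 1290, 1310 and 1147 CPM in WT NK1.1+ cells and 1782, 1630 and 1952 CPM in WT NK1.1- cells. Every NK1.1+ library was below every NK1.1- library, and the log2 fold change was -0.55 ± 0.12 (SE, n = 3 each), with an adjusted p of 0.00798 in edgeR. Rpl28, a large subunit protein that *Saccharomyces cerevisiae* lacks, was at 587, 638 and 549 CPM in WT NK1.1+ cells and 852, 722 and 1002 CPM in WT NK1.1- cells. It too fell without overlap, by 0.57 ± 0.14 on the log2 scale, with an adjusted p of 0.0130 in edgeR.

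Rps27, a zinc-binding protein of the small subunit, was at 3000, 2450 and 2304 CPM in WT NK1.1+ cells and 1843, 1716 and 1945 CPM in WT NK1.1- cells, and the groups did not overlap. Its log2 fold change was 0.46 ± 0.13 (SE, n = 3 each), with an adjusted p of 0.0286 in edgeR. Rps27rt was at 1064, 737 and 787 CPM in WT NK1.1+ cells and 659, 518 and 620 CPM in WT NK1.1- cells, a log2 fold change of 0.50 with an adjusted p of 0.0457 in edgeR. The transcripts of Rps27rt and Rps27 are identical over 341 bases, so how reads were split between both is uncertain. Their summed level was 4065, 3186 and 3092 CPM in WT NK1.1+ cells and 2502, 2235 and 2566 CPM in WT NK1.1- cells, which did not overlap. Rps27l, a copy of Rps27 induced by p53, had the lowest log2 fold change of the 82, -0.81 ± 0.33 (SE, n = 3 each). It was at 78.3, 38.9 and 50.9 CPM in WT NK1.1+ cells and 136, 70.2 and 82.4 CPM in WT NK1.1- cells, which overlapped, with an adjusted p of 0.137 in edgeR and 76.4% identity to Rps27 over the aligned part. DESeq2 called Rps27l and the 5 genes called in edgeR, 6 of the 82 (7.32%) against 10.9% of all genes in that fit.

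Rps26 stayed called without any 1 of the 6 WT libraries. The call of Rpl28 was lost without NK1.1- replicate 1 or 3 or NK1.1+ replicate 3. The calls of Rps27 and Rps27rt were each lost in 5 of 6 such fits, and Rps27 stayed called only without NK1.1+ replicate 3 and Rps27rt only without NK1.1+ replicate 2. Under 11 other alternatives Rps27 stayed called in 11 and Rps27rt in 7, and the call of Rps27rt was lost with limma-voom, with TMM factors from the other genes alone, without the robust option and in a fit of all 12 libraries. The median log2 fold change was -0.11 without NK1.1- replicate 2, 0.06 without NK1.1- replicate 3, -0.09 without NK1.1+ replicate 1 and 0.02 without NK1.1+ replicate 3.

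**Figure D3:**
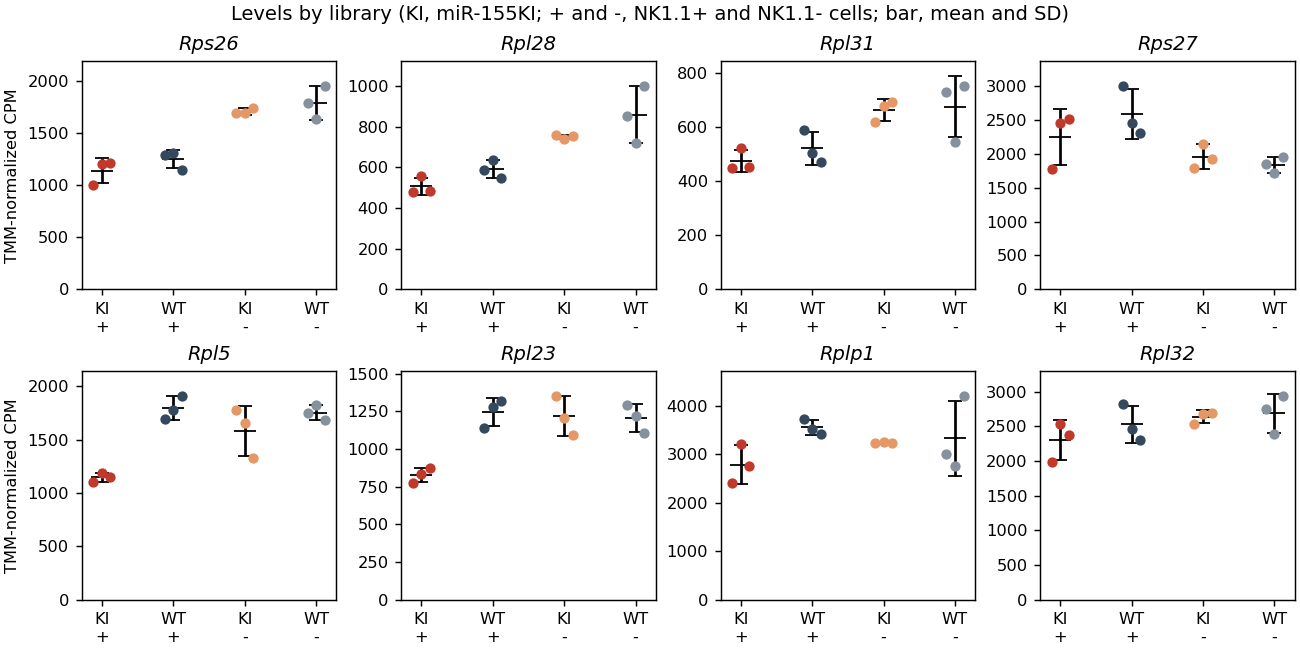
TMM-normalized CPM (y axis, from 0) of 8 ribosomal protein genes in each library, by group, with 1 point per library and the mean and SD in black. *Rps26* and *Rpl28* were lower in NK1.1+ than in NK1.1- cells of both genotypes, while *Rpl5* and *Rpl23* were at 1101 to 1189 and 777 to 871 CPM in miR-155KI NK1.1+ libraries and at least 1324 and 1092 CPM in the others.

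In miR-155KI cells, the same comparison of NK1.1+ with NK1.1- cells called 6 of the 82 genes in edgeR, all lower in NK1.1+ cells, with Rps26, Rpl28, Rpl23, Rpl31 and Rpl5 among them. The background was 7.92% of all genes higher and 6.15% lower (14.1% together). The median log2 fold change was -0.17 against 0.03 over all genes, with 71 of the 82 lower against 47.6% of all genes. At an unadjusted p under 0.05 there were 22 (26.8%), against 27.4% of all genes. DESeq2 called the same 6 and Rpl41, 7 of the 82 (8.54%) against 10.2% of all genes in that fit. The levels did not overlap in 28 genes that were lower and 0 that were higher in NK1.1+ cells, against 17.1% and 17.5% of all genes. Scaling to the summed counts of the 82 genes cannot show a shift that they share. With it 7 genes were called lower and 4 higher in NK1.1+ cells, against 3.54% and 11% of all genes. The higher ones were Rpl13a, Rps23, Rps27 and Rps27rt.

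Rps26 was at 1004, 1198 and 1213 CPM in miR-155KI NK1.1+ cells and 1686, 1685 and 1738 CPM in miR-155KI NK1.1- cells, a log2 fold change of -0.58 ± 0.11 (SE, n = 3 each) with an adjusted p of 0.00697 in edgeR. Rpl28 was at 480, 555 and 485 CPM in miR-155KI NK1.1+ cells and 758, 739 and 754 CPM in miR-155KI NK1.1- cells, a log2 fold change of -0.57 with an adjusted p of 0.00646 in edgeR. Neither gene overlapped between pools, and both were among the 3 called in both genotypes. Their interaction values were -0.06 and -0.03, neither called.

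Rpl31, a large subunit protein near the exit of the peptide tunnel, was at 450, 523 and 451 CPM in miR-155KI NK1.1+ cells and 617.5, 677 and 694 CPM in miR-155KI NK1.1- cells. The pools did not overlap, and the log2 fold change was -0.48 with an adjusted p of 0.0174 in edgeR. In WT cells it was at 588, 505 and 470 CPM in NK1.1+ and 727, 545 and 753 CPM in NK1.1- libraries, which overlapped, with a log2 fold change of -0.40 and an adjusted p of 0.0756 in edgeR. Rpl5 was at 1774, 1652 and 1324 CPM and Rpl23 at 1353, 1207 and 1092 CPM in miR-155KI NK1.1- libraries, above all of their NK1.1+ libraries given before. The log2 fold changes were -0.47 for Rpl5 and -0.56 for Rpl23, with adjusted p of 0.0391 and 0.0116 in edgeR. In WT cells their pool differences were 0.00 and 0.01, and the interaction given before, which is the test of that contrast, was not called. The pool and the genotype comparisons share the miR-155KI NK1.1+ libraries, so the low levels of Rpl5 and Rpl23 there enter both.

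Rps27 was at 1768, 2444 and 2513 CPM in miR-155KI NK1.1+ cells and 1786, 2147 and 1919 CPM in miR-155KI NK1.1- cells. These overlapped, and the log2 fold change was 0.20 with an adjusted p of 0.432 in edgeR. Replicate 1 lay apart: it was the lowest of the 6 miR-155KI libraries in 71 of the 82 genes. Without it 10 genes were called, 2 higher and 8 lower, against 9.63% and 9.21% of all genes. Then the median log2 fold change was -0.09, and 28 genes were lower without overlap against 25% of all genes. Rpl28 stayed called without any 1 of the 6 libraries, and Rps26 was lost only without NK1.1- replicate 3. The call of Rpl31 was lost without any NK1.1- library or NK1.1+ replicate 3, that of Rpl23 without NK1.1- replicate 1 or 2, and that of Rpl5 without NK1.1- replicate 1 or 2 or NK1.1+ replicate 2 or 3 and under scaling to the summed counts. With libraries scaled by their totals alone, 32 of the 82 genes (39%) were called, all lower, and in that fit 7.56% of all genes were called lower and 6.56% higher. Of 8 macrophage markers, 6 were called higher in miR-155KI NK1.1+ than NK1.1- cells, with summed levels of 220 to 850 and 35.3 to 103 CPM, and the part of these cells was not tested.

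The remaining genes of known roles stayed without a call in all 4 comparisons. Rps6, the S6 kinase substrate, was at 1764, 2103 and 2137 CPM in miR-155KI NK1.1+, 2347, 2111 and 2009 CPM in WT NK1.1+, 1853, 2063 and 2110 CPM in miR-155KI NK1.1- and 1982, 1920 and 2246 CPM in WT NK1.1- cells, and all groups overlapped. Rpsa, also known as the laminin receptor, was at 2409, 3253 and 2928 CPM in miR-155KI NK1.1+ and 3497, 3556 and 3272 CPM in WT NK1.1+ cells. These did not overlap. Rps19, the gene most often mutated in Diamond-Blackfan anaemia, was at 1492, 1977 and 1856 CPM in miR-155KI NK1.1+ and 2294, 1938 and 1753 CPM in WT NK1.1+ cells, which overlapped. Of the 20 ribosomal protein genes linked to this anaemia in human patients, which are all among the 82, 1 was called higher and 2 lower between WT pools, 4 were called lower between miR-155KI pools, and 0 were called in either genotype comparison in edgeR. Over all genes the shares were 9.89% higher and 10.9% lower between WT pools and 6.15% lower between miR-155KI pools. The medians of the 20 genes were -0.08 and -0.23 between WT and miR-155KI pools, -0.20 between genotypes of NK1.1+ cells and -0.06 of NK1.1- cells.

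Among the copies, Rpl36al, which is 83.7% identical to Rpl36a over the aligned part, was at 294, 318 and 290 CPM in miR-155KI NK1.1+, 340, 310 and 269 CPM in WT NK1.1+, 350, 364 and 381 CPM in miR-155KI NK1.1- and 432, 328 and 412 CPM in WT NK1.1- cells. Its genotypes overlapped in NK1.1+ cells, and its pools did not overlap in miR-155KI cells. Rpl37rt, annotated as a transcribed pseudogene and 99.7% identical to Rpl37 over 344 bases, is likewise uncertain in its split of reads. The sum of Rpl37 and Rpl37rt was 803, 1197 and 1029 CPM in miR-155KI NK1.1+, 1299, 1187 and 1149 CPM in WT NK1.1+, 984, 1042 and 998 CPM in miR-155KI NK1.1- and 1071, 972 and 1324 CPM in WT NK1.1- cells. The genotypes overlapped in both pools.

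Among canonical genes that the names left out, Rack1, a scaffold on the small subunit, had log2 fold changes of -0.29 and -0.11 between genotypes of NK1.1+ and NK1.1- cells. Fau, which encodes a fusion with a small subunit protein, had -0.34 and -0.07. Neither was called in any of the 4 comparisons in edgeR.

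Other genes of ribosome production set these values in context. Of 24 other mRNAs with a TOP tract, such as translation factors, 0 were called between genotypes in either pool in edgeR, with medians of -0.14 for the NK1.1+ pool and -0.11 for the NK1.1- pool and 5 and 2 at an unadjusted p under 0.05, where 11.8% and 18.5% of all genes stood. Between pools 4 fell in WT NK1.1+ cells and 5 in miR-155KI NK1.1+ cells, against 10.9% and 6.15% of all genes, with medians of -0.15 and -0.20. Nap1l1, a histone chaperone, led both, at 142, 97.8 and 110 CPM in miR-155KI NK1.1+, 117, 120 and 105 CPM in WT NK1.1+, 206, 230 and 236 CPM in miR-155KI NK1.1- and 226, 208 and 211 CPM in WT NK1.1- cells. No NK1.1+ library reached an NK1.1- library.

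Of 42 nucleolar assembly factors, 12 fell in NK1.1+ cells between WT pools and 2 between miR-155KI pools, against 10.9% and 6.15% of all genes, with medians of -0.31 and -0.15. Wdr12, which matures large subunit RNA, fell by 1.11 on the log2 scale between WT pools, with an adjusted p of 0.000484 in edgeR. Between genotypes 0 were called for NK1.1+ and 1 for NK1.1- cells, Gnl3, a nucleolar GTPase, which was lower in miR-155KI cells (log2 fold change of -0.53, adjusted p of 0.0290 in edgeR). Of 77 genes of the mitochondrial ribosome, 13 fell in NK1.1+ cells between WT pools and 3 between miR-155KI pools, against the same shares of all genes, with medians of -0.32 and -0.13. Between genotypes 0 were called, and their median in NK1.1+ cells was 0.13 with 59 of 77 higher in miR-155KI cells. There 79 of the 82 cytosolic genes and 47.6% of all genes were lower. The mitochondrial ribosome genes took 0.427%, 0.343% and 0.346% of counts in WT NK1.1+ replicates 1, 2 and 3. They took 0.426%, 0.411% and 0.413% in the miR-155KI NK1.1+ libraries. WT replicate 1 was thus not below these, and the part of single libraries was not tested. For 878 other genes with transcripts of at most 1000 bases, the median in this genotype comparison was 0.04.

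**Figure D4:**
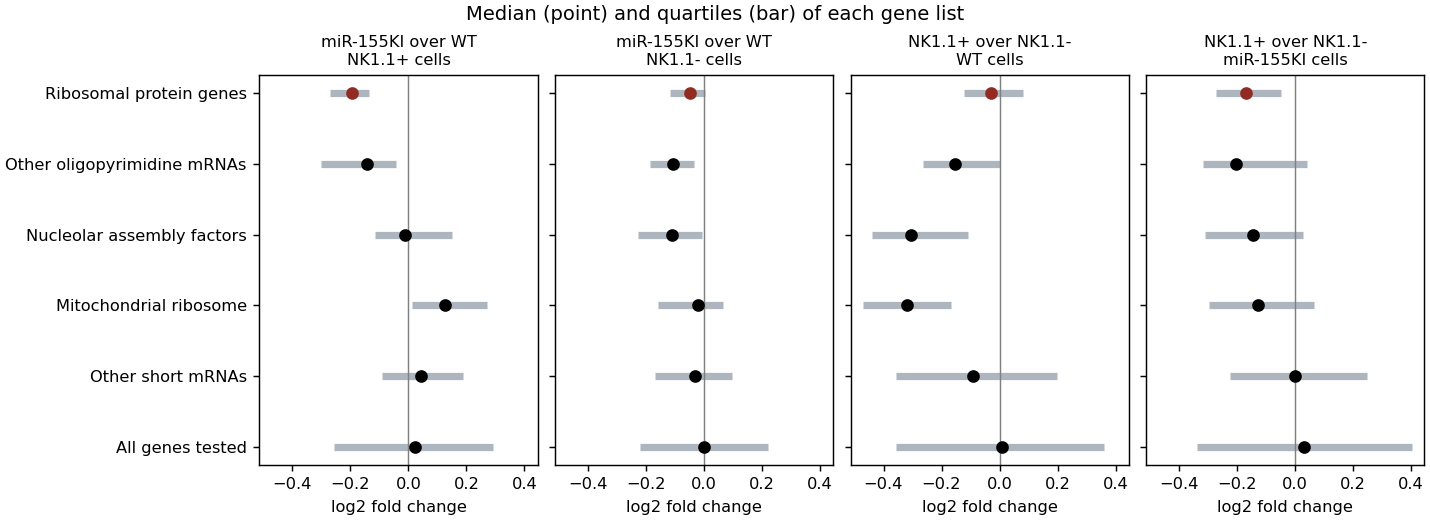
Median (point) and range between quartiles (bar) of the log2 fold change in edgeR (x axis) of the 82 cytosolic ribosomal protein genes, in red, and of 5 other sets of genes, in the 4 comparisons. In the genotype comparison of NK1.1+ cells the ribosomal protein genes had a median of -0.19 and the mitochondrial ribosome one of 0.13. The mitochondrial ribosome took 0.427% of counts in WT NK1.1+ replicate 1 and 0.411% to 0.426% in miR-155KI NK1.1+ libraries. Scaled to their own summed counts, which cannot show a shared shift, the ribosomal protein genes had a median of 0.02.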

How the data were processed

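RNA was sequenced from sorted thymic *i*NKT cells in 12 libraries, 3 for each of 4 groups named by the labels. Per the labels the libraries were made with the SMART-Seq v4 kit, while the study's methods name the TruSeq kit and pooled replicates. Raw counts for every gene were deposited, as whole numbers. A second deposited table, a signal in CPM, holds these counts over each library's total. The submitters' processing notes name bcl2fastq 2.17.1.14 and the builds GRCm38 and mm10; the aligner and counter are not given in the sources used here, nor is whether strand was used. The CPM table chose the 82 genes and the counts were tested. 

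Each comparison was fitted on its 6 libraries over all genes that passed filterByExpr, with TMM factors and the robust quasi-likelihood test of edgeR 4.0.16 (R 4.3.3), and p-values were adjusted by Benjamini-Hochberg over all genes tested; an adjusted p under 0.05 was a call. The interaction was fitted on all 12 libraries. The script was tested on simulated counts. DESeq2 1.42.0, limma-voom 3.58.1, other scalings, filters, the replicate block and each library left out were alternatives. Tables and plots used Python 3.11.15 with pandas 2.3.3, numpy 2.4.6 and matplotlib 3.10.9. Transcript lengths and identities of copies came from GENCODE transcripts.

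Deviations of same-numbered libraries from their group means correlated across genes at 0.315, 0.257 and 0.119 between WT pools, where differing numbers reached 0.121. Between miR-155KI pools they correlated at 0.113, 0.0586 and 0.0448, where differing numbers reached 0.0213. Between genotypes the values were 0.0694, 0.147 and 0.0820 in NK1.1- cells and -0.0801, 0.0119 and -0.000595 in NK1.1+ cells. Differing numbers reached 0.00641 and 0.0586 there. Named genes were the up to 5 largest called changes in each direction, or the 3 smallest p where fewer than 3 were called, a list of genes of known roles, those next to the limit of 50 CPM, and up to 4 genes of each other list. Rps21, Rps29, Rpl13a, Rps3a1 and genes called only under an alternative were added after their values were seen. The genes and lists were chosen with earlier results of these data known. Single values of some of the genes are not reported here.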

Additional observations from a re-analysis of the deposited data

How the results depend on the processing

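Of the 82 genes, 0 were called between genotypes in NK1.1+ cells. DESeq2 called 2 (2.44%), against 1.15% of all genes. A fit of all 12 libraries called 2, against 0.417%, and no filter on low counts gave 1 (1.22%), against 1.02%. These were Rpl5 and Rpl23. Between WT pools 5 were called (6.1%), against 20.8% of all genes. Scaling by library totals gave 9 (11%), against 21.5%. Scaling to the summed counts of the 82 genes gave 8 (9.76%), against 17%. The replicate block, which kept the same 5, gave 8, against 29.9%. Leaving out each WT library in turn gave 1 to 6, against 13% to 22.9% of all genes. Between miR-155KI pools 6 were called (7.32%), against 14.1% of all genes. Requiring at least 10 counts in every library gave 14 (17.1%), against 16.2%. Library totals gave 32 (39%), against 14.1%, and limma-voom gave 10 (12.2%), against 15.1%. Scaling to the summed counts gave 11 (13.4%), against 14.6%. Leaving out each library gave 2 to 10, against 5.85% to 18.8% of all genes. There the replicate block called 9 (11%), against 14.2%. In this comparison every library correlated best with its own number, a hint from the data and not from the design. Likewise in the NK1.1- genotype comparison every library did, in that of NK1.1+ cells none did. In both genotype comparisons and the interaction the block called 0. Counts of 0 in NK1.1- cells and in the interaction stood under every alternative, and the share of counts of each group moved by less than its SD. Counts of genes without overlap after leaving out a library were chosen after seeing the data.

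With 3 libraries per group, the median standard error of the log2 fold change of the 82 genes between genotypes was 0.13 for NK1.1+ cells and 0.11 for NK1.1- cells, so the absence of a call does not show equal levels. Counts rest on amplified cDNA without molecular identifiers.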

Other observations

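Of 21 genes of mTORC1 and MYC control of ribosome production, 20 were tested between genotypes. In NK1.1+ cells 0 were called in edgeR, and 5 had an unadjusted p under 0.05, against 11.8% of all genes. In NK1.1- cells 1 was called, against 3.44% of all genes. That gene was Mycn, a MYC family factor, at 0.926, 1.05 and 1.76 CPM in miR-155KI NK1.1- cells and 5.23, 11.7 and 5.07 CPM in WT NK1.1- cells, which did not overlap, with a log2 fold change of -2.57 and an adjusted p of 0.00514 in edgeR. Myc itself was at 215, 170 and 181 CPM in miR-155KI NK1.1- cells and 229, 154 and 153 CPM in WT NK1.1- cells, which overlapped. Between WT pools 2 of 20 tested were called higher and 3 lower in NK1.1+ cells, against 9.89% and 10.9% of all genes. Rptor, the subunit that brings substrates to mTORC1, and Mxd4, an antagonist of MYC, rose, with log2 fold changes of 1.15 and 0.77. Mycn, Mxd3 and Mlst8 fell. Between miR-155KI pools 3 of 19 tested were called higher in NK1.1+ cells and 0 lower, against 7.92% and 6.15% of all genes. These were Rptor, Mxd1 and Eif4ebp1, a repressor of translation under mTORC1 control, with log2 fold changes of 0.71, 1.01 and 1.06.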
